A study of Mus musculus with 18 samples.

Results

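The genes described here are those that copy the DNA and drive a cell through division. They were chosen by symbol: A, B, D and E cyclins (Ccna, Ccnb, Ccnd, Ccne), genes starting with Cdk or Cdc and a digit or with Cdkn, the Mcm helicase genes, Pcna, catalytic and accessory subunits of DNA polymerases alpha, delta and epsilon, the Rfc clamp loader, the Orc origin proteins, the Cenp centromere proteins, Zwint and the Top2 topoisomerases. On the arrays 93 genes matched (128 of 16128 probes), 91 of them had a value on at least 6 of 18 arrays, and 53 had values on enough arrays (15 of 18, and at least 1 in every group) to be tested. The symbol rule also took in genes that share a prefix with the family but do other work, such as the small GTPase Cdc42 and its effectors and the splicing factors Cdc5l and Cdc40. These 18 genes, 13 of them tested, have a paragraph of their own below but are counted among the 53 wherever that number is given.

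In the study, kidneys of CD1 mice were profiled after 1, 2 or 4 weeks, counted from postnatal day 2, in normal air (normoxia), at a constant 11% oxygen (constant hypoxia), or in intermittent hypoxia, where oxygen was switched from 21% to 11% and back at steps of 4 min. There were 2 cDNA arrays for each of 9 groups, called A and B. Every array set Cy5 cDNA of 1 male against Cy3 cDNA of 1 female from the same group, with no dye swap, so its value is a log2 ratio between 2 animals treated alike. A change of a gene with oxygen or age that was equal in both animals cancels in that ratio and cannot be seen here. The numerator of the ratio is not known here. Positive and negative are therefore only the sign of the deposited value after the median of its array was subtracted, and they say nothing about sex. Comparisons between regimes or durations ask whether the ratio itself differed. On intermittent hypoxia 2 weeks A one channel is named as an animal of 1 week, and on constant hypoxia 4 weeks A a treatment text gives 2 weeks. Both arrays were kept in the group of their title.

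A cell that enters the cycle makes D cyclins, which with Cdk4 or Cdk6 release the E2F factors, and E2F switches on the genes for origin licensing and DNA synthesis. Origins are marked by the Orc proteins, loaded with the Mcm helicase by Cdc6, and copied by polymerases held on DNA by the Pcna clamp, which the Rfc proteins load. Later, cyclin B with Cdk1 starts mitosis, the Cenp proteins and Zwint build the kinetochore that holds chromosomes to the spindle, and Cdc20 with the anaphase-promoting complex ends it. In the mouse kidney nephrons are still being formed in the first days after birth, and growth by division goes on in the weeks that follow.

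Promoter sequences were searched for the strings that these factors are known to bind. Reference promoters (RefSeq, GRCm38.p6, 250 bases before to 50 after a start) were found for 81 of the 93 genes. Exact matches to any of the E2F strings TTTCCCGC, TTTCGCGC, TTTGCCGC or TTTGGCGC, on either strand, stood in the promoters of 18 of these 81 genes (22.2%), against 2.60% of the 27025 genes of the table. Among the 21 replication genes with a promoter 11 held one (52.4%), among them Mcm3, Mcm5, Mcm6, Mcm7, Orc1, Cdc6 and Pole4, and among 17 mitosis and kinetochore genes 3 did (17.6%). CCAAT, the box bound by NF-Y, stood in 59.3% of the members and 41.1% of all genes (66.7% of the replication and 70.6% of the mitosis and kinetochore genes), and TTTGAA, the core of the CHR element of mitotic genes, in 21.0% and 20.2%. These matches describe letters and not binding, and differences between the shares were not tested. The 200 bases before the gene are printed for 5 of them, in lower case with matches to these strings in capitals, because they show promoters with and without an E2F string and include Zwint, the one gene called between regimes. Mcm5 holds overlapping E2F strings 112 to 101 bases before the gene. Cdk1 has an E2F string 131 bases before it, followed by CCAAT and TTTGAA boxes, the last TTTGAA starting 15 bases before the gene. Cdc20 and Top2a hold CCAAT and TTTGAA but no such E2F string, and Zwint has a single CCAAT that starts 37 bases before the gene.
Mcm5 (chr8:75109268-75109467, plus strand): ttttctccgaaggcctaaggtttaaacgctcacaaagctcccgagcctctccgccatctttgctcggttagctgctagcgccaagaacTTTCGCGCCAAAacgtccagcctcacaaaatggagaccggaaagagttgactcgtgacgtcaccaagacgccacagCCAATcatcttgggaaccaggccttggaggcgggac
Cdk1 (chr10:69352913-69353112, minus strand): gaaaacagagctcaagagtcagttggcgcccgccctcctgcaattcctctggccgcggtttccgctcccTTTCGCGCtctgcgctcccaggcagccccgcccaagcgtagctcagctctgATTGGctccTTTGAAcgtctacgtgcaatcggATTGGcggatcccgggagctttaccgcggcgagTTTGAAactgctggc
Cdc20 (chr4:118437344-118437543, minus strand): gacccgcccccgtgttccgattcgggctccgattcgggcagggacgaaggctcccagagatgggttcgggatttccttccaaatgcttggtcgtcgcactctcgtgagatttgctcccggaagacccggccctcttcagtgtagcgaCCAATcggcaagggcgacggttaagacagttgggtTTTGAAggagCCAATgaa
Top2a (chr11:99024200-99024399, minus strand): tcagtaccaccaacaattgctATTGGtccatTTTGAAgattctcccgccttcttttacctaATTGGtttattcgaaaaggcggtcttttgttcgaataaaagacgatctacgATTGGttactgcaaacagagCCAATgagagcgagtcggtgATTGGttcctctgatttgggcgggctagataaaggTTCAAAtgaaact
Zwint (chr10:72654646-72654845, plus strand): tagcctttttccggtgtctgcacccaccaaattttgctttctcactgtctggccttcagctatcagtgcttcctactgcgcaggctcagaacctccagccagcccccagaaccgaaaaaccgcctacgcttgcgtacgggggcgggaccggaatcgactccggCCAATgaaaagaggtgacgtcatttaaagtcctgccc

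Coverage of the members differed between regimes. Of the 91 genes, 97.8% to 100% had a value on the constant hypoxia arrays, 53.8% to 90.1% on the normoxia arrays and 58.2% to 87.9% on the intermittent hypoxia arrays, in step with all probes (81.8% to 88.8%, 41.0% to 67.9% and 42.9% to 65.7%). Cdc40 and the clamp loader subunit Rfc5 missed the limit with 5 arrays each, all of constant hypoxia, while Cdk12 passed with 6 and Cdc14a, Cenpf and Cenpt with 7. Deposited medians lay between -1.13 and -0.18 on the constant hypoxia arrays and between -0.15 and 0.10 on all others. Constant hypoxia thus cannot be told apart from this difference in the deposited values, whose cause is not given. Neighbouring probe numbers also carried similar values (correlation of adjacent probes 0.18 to 0.84, highest on constant hypoxia 4 weeks A). For this reason the running median of 101 neighbouring probes is given beside the results. Few defining markers of kidney cells passed the filter: 3 of 10 for tubule (Lrp2, Miox and Calb1), 2 of 5 for podocytes and 0 of 8 for nephron progenitors. Ratios of the progenitor markers were thus not tested, in kidneys taken 1 week or more after postnatal day 2. A ratio in whole kidney does not separate fewer cells of a type from less RNA per cell. The median residual SD between arrays of a group was 0.29 for the members tested and 0.29 for all features.

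**Figure D1:**
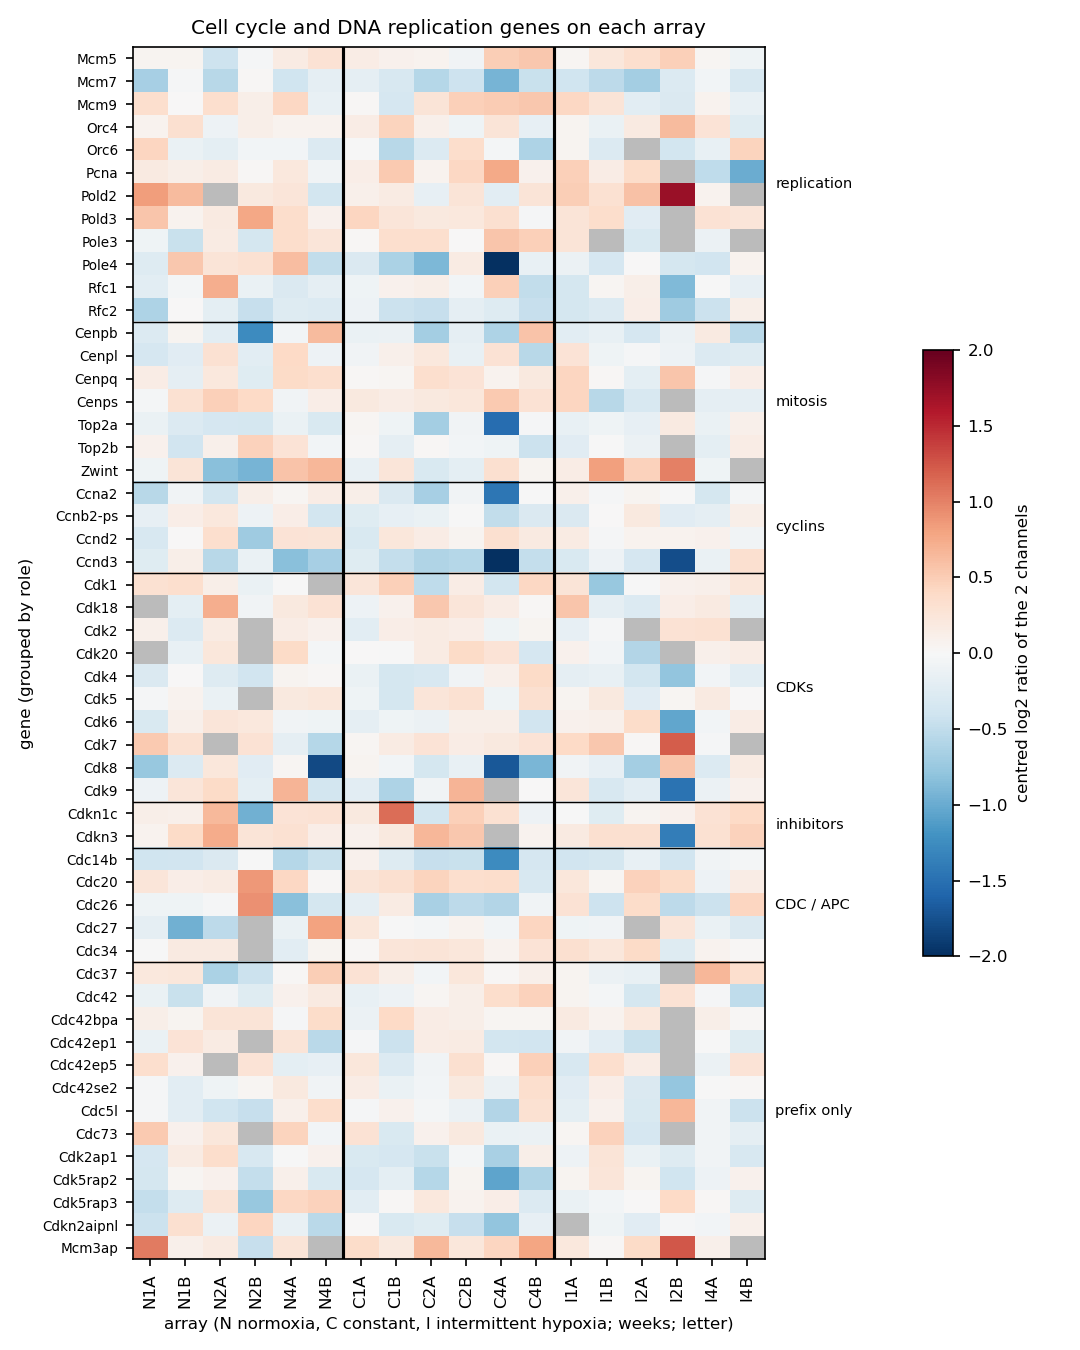
Centred log2 ratio of each of the 53 tested genes (rows, grouped by role) on each of the 18 arrays (columns; N normoxia, C constant hypoxia, I intermittent hypoxia, then weeks and array letter); grey cells have no value, and values beyond the colour scale take its end colour. Array C4A holds several of the deepest negative values, such as Pole4 at -2.14 and Ccnd3 at -1.99.

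Across the 53 genes the mean ratio of each regime was centred near 0. The median of the members was 0.02 in normoxia, 0.03 in constant hypoxia and -0.04 in intermittent hypoxia, against -0.00, -0.01 and -0.01 for all 5751 features. The widest shift of the set's median was in constant hypoxia minus normoxia at 4 weeks, where 37 of 53 genes were negative (median -0.15, against -0.03 for all features). Of all features 45.7% were positive there. The 4 cyclins, which include the pseudogene Ccnb2-ps, were all negative (median -0.38), as were 6 of the 7 mitosis and kinetochore genes (median -0.32). The 12 replication genes were split 6 to 6. Among the cyclins Ccnd2 was at -0.02, and Ccna2 went from -0.82 to -0.10 without constant hypoxia 4 weeks A. On 4 weeks B Ccnd3 (-0.48) lay above both normoxia arrays of 4 weeks (-0.84 and -0.67). So did Top2a (-0.02, against -0.13 and -0.30), so the negative sign of these genes rested on 4 weeks A. The counts of signs without that array are not given. With the running median of neighbouring probes removed, 19 of the 53 genes were positive and the median of the 53 was -0.03. In intermittent hypoxia minus normoxia at 4 weeks, which shares its normoxia arrays with that comparison, 6 of the 7 mitosis and kinetochore genes were negative too (median -0.30). At 1 week the 5 CDC phosphatase and ubiquitin ligase genes were all positive in constant hypoxia minus normoxia (median 0.10). None of the genes in these groups passed the test there. In a test of each regime's mean ratio against 0 (limma, Benjamini-Hochberg over all features, adjusted p under 0.05), 5 of 53 genes passed in constant hypoxia, all negative, where 18.3% of all features passed, 762 of them negative and 288 positive. None passed in normoxia (background 3.53%) or in intermittent hypoxia (background 5.79%). There 6 and 5 genes had an unadjusted p under 0.05 (11.3% and 9.43%), against 21.7% and 24.6% of all features. Between regimes, 1 gene passed: Zwint, in intermittent hypoxia minus normoxia at 2 weeks, where 0.0869% of features passed. Limma called 0 of 53 genes in the other comparisons. The background was 0.0174% for constant hypoxia minus normoxia at 2 weeks and 0.0348% at 4 weeks. It was 0% for that difference at 1 week and over all durations, for intermittent hypoxia minus normoxia over all durations, at 1 week and at 4 weeks, and for every comparison of 4 weeks with 1 week. In the 14 comparisons with 0 genes called, 0 to 6 members (0% to 11.3%) had an unadjusted p under 0.05, against 2.47% to 24.6% of all features. Unmoderated statistics called 1 member in the intermittent hypoxia ratio and 0 in the rest.

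**Figure D2:**
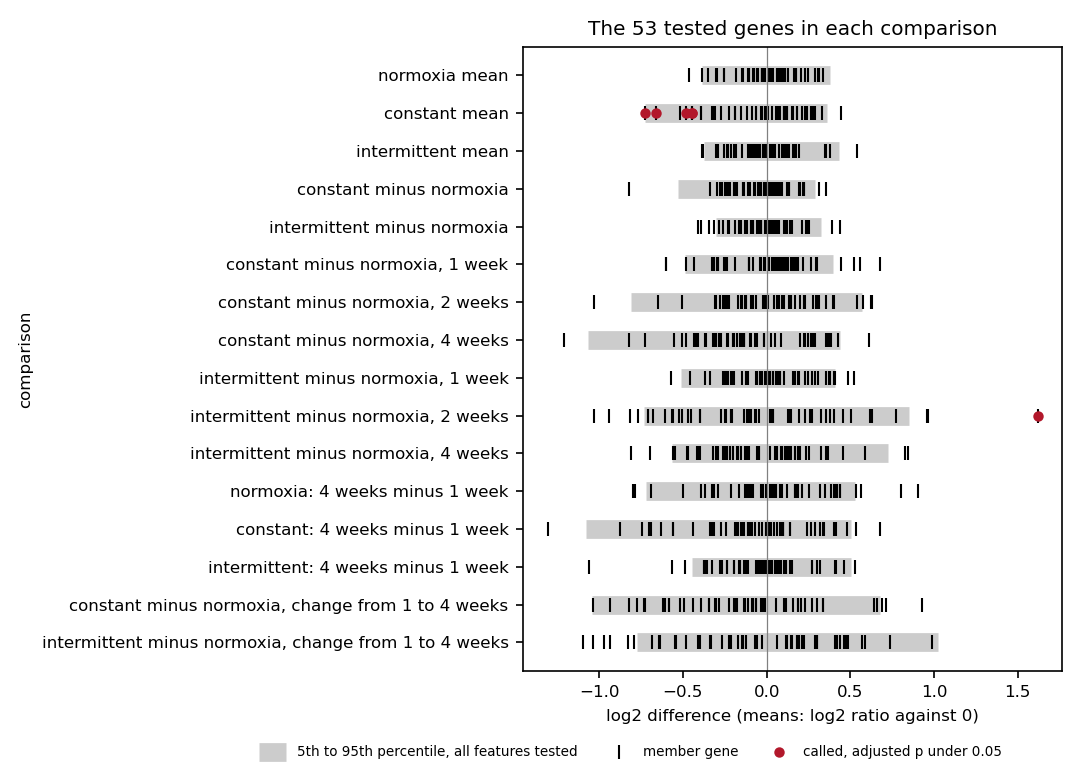
Log2 difference of each of the 53 tested genes (ticks) in the 16 comparisons, with the 5th to 95th percentile of all 5751 features (grey bars) and the genes called by limma at an adjusted p under 0.05 (red dots). Most members lie inside the grey bar in every comparison, and the largest called difference is that of Zwint at 1.62.

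Among the replication genes, 12 of 24 were tested, and Mcm7 and Pole4 passed in constant hypoxia. Mcm7, a subunit of the replicative helicase, read -0.18 and -0.32 at 1 week, -0.57 and -0.42 at 2 weeks and -0.93 and -0.45 at 4 weeks of constant hypoxia. It was negative on all 6 of these arrays, with a mean of -0.48 (SE 0.11, limma adjusted p 0.0145). Mcm7 was also negative on most arrays of the other regimes, 17 of 18 in all, with means of -0.30 (SE 0.11) in normoxia and -0.38 (SE 0.11) in intermittent hypoxia, whose limma adjusted p were 0.149 and 0.0619. The neighbours of its probe on the slide ran alike: their running median was -0.07, -0.53, -0.54, -0.68, -1.42 and -0.58 on the same constant hypoxia arrays. With the running median removed, Mcm7 read 0.15 with a limma adjusted p of 0.496.

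Pole4, a small histone-fold subunit of polymerase epsilon, read -0.29 and -0.63 at 1 week, -0.90 and 0.16 at 2 weeks and -2.14 and -0.16 at 4 weeks of constant hypoxia. One array, 4 weeks A, stood far below the other 5. Its mean was -0.66 (SE 0.22, limma adjusted p 0.0494), and without that array it was -0.33 (adjusted p 0.247). With the running median of its neighbours removed, which was -2.51 on 4 weeks A, Pole4 read 0.09 (adjusted p 0.772). The letter of the array as a block also ended its call (adjusted p 0.0510). A second Pole4 probe, with values on too few arrays to be tested, read 0.17 on 1 week A and 0.60 on 4 weeks B, where the tested one read -0.29 and -0.16.

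The other tested replication genes did not pass the test in any comparison. Mcm5, which unwinds DNA with Mcm7 in the same ring, had the opposite sign in constant hypoxia (0.15, 0.08, 0.07, -0.07, 0.49 and 0.54, mean 0.21, SE 0.08, limma adjusted p 0.0829). Mcm5 also had the second smallest p in the positive direction in intermittent hypoxia minus normoxia at 2 weeks, with -0.42 and -0.03 in normoxia against 0.34 and 0.47 in intermittent hypoxia (difference 0.63, SE 0.20, adjusted p 0.212). These groups of 2 arrays did not overlap, but how many of all features separate in this way was not counted. Mcm9, a relative of the helicase that works in DNA repair, went from 0.02 and -0.33 at 1 week to 0.50 and 0.54 at 4 weeks of constant hypoxia (difference 0.68, SE 0.24, adjusted p 0.422). Pcna, the sliding clamp, read 0.47 and 0.15 at 1 week, 0.37 at 2 weeks and -0.51 and -0.99 at 4 weeks of intermittent hypoxia. The Pcna values at 4 weeks lay below those on the other 15 arrays with a value, and 4 weeks minus 1 week was -1.06 (SE 0.28). Its unadjusted p of 0.00197 gave an adjusted p of 1.00 over all features. Pold2, an accessory subunit of polymerase delta, had the highest mean of the 53 tested genes in intermittent hypoxia (0.54, SE 0.16, adjusted p 0.0701), with 0.49 and 0.30 at 1 week, 0.59 and 1.73 at 2 weeks and 0.07 on the single array with a value at 4 weeks. Pold3, another subunit of that polymerase, was positive on 15 of 17 arrays, the others being constant hypoxia 4 weeks B (-0.03) and intermittent hypoxia 2 weeks A (-0.23). Its normoxia mean was 0.34 (SE 0.10, adjusted p 0.0867). Rfc2, a clamp loader subunit, was negative on 15 of 18 arrays, with means of -0.30 in normoxia and -0.32 in constant hypoxia (both SE 0.12). Pole3, the partner of Pole4, had a mean of 0.29 in constant hypoxia (SE 0.11, adjusted p 0.0731), a sign opposite to that of Pole4. Of the untested genes in this group, Cdc6, the helicase loader, was positive on all 8 arrays with a value (0.30 to 0.76 in constant hypoxia, 0.73 and 1.65 in intermittent hypoxia). The running median at its probe was 0.08 to 0.22 on the constant hypoxia arrays and 0.00 and 0.22 on those of intermittent hypoxia.

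Among the mitosis and kinetochore genes, 7 of 17 were tested, and Zwint, a protein of the outer kinetochore, was the only member called between regimes. At 2 weeks it read -0.83 and -0.93 in normoxia, 0.46 and 1.01 in intermittent hypoxia, and -0.31 and -0.20 in constant hypoxia. The 3 pairs did not overlap, with constant hypoxia between the other regimes. Zwint is described because it was called here, so this separation adds no support to the call. The difference of intermittent hypoxia from normoxia was 1.62 (SE 0.27, limma adjusted p 0.0499), just inside the threshold, and that of constant hypoxia was 0.63 (SE 0.27, adjusted p 0.457). The probe's neighbours had a running median of 0.42 and 0.44 on the intermittent hypoxia arrays and -0.05 and 0.01 on the normoxia arrays. With it removed Zwint differed by 1.18 (adjusted p 0.0341). The call was lost with values as deposited (1.53, adjusted p 0.0867), with arrays brought to one spread (1.29, adjusted p 0.440), with unmoderated statistics (adjusted p 0.0672) and with array letter as a block (adjusted p 0.0591). Without intermittent hypoxia 2 weeks A, the array whose labels disagree, the difference was 1.89 (adjusted p 0.00584), and without 2 weeks B it was 1.35 (adjusted p 0.365). Leaving out either normoxia array of 2 weeks gave 1.57 to 1.67 and ended the call (adjusted p 0.168 and 0.0953). So did leaving out any normoxia array of 1 or 4 weeks, any constant hypoxia array of 1 or 2 weeks or either intermittent hypoxia array of 1 week, with the difference itself still 1.62 (adjusted p 0.0590 to 0.0938).

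Zwint did not keep this pattern at the other durations. At 1 week it read -0.08 and 0.25 in normoxia and 0.15 and 0.82 in intermittent hypoxia (difference 0.40, SE 0.27, limma adjusted p 1.00). At 4 weeks it read 0.58 and 0.66 in normoxia and -0.08 on the single intermittent hypoxia array with a value (difference -0.70, SE 0.34, adjusted p 0.573). Within normoxia the lowest pair was thus that of 2 weeks and the highest that of 4 weeks.

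**Figure D3:**
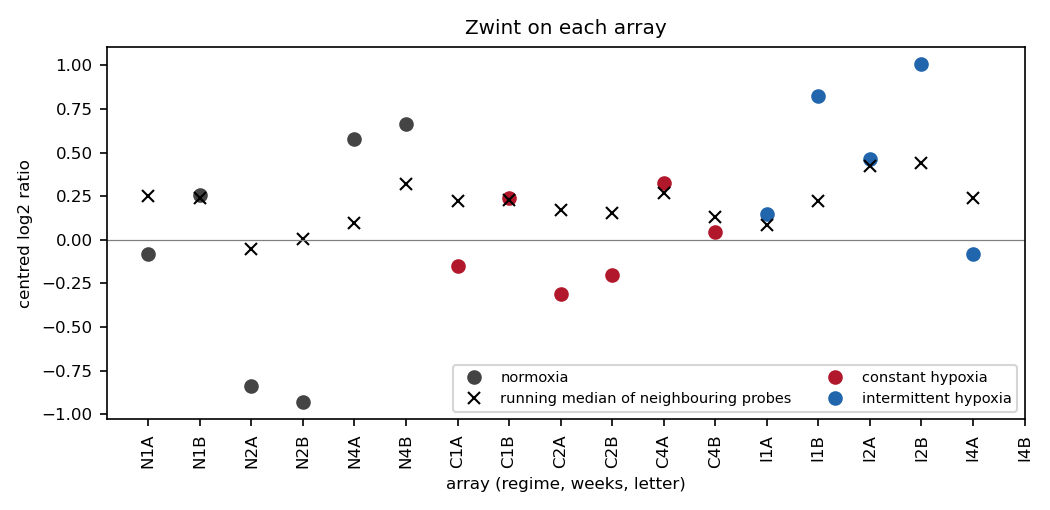
Centred log2 ratio of Zwint on each array (dots, coloured by regime) and the running median of 101 neighbouring probes on the same array (crosses); intermittent hypoxia 4 weeks B has no value. At 2 weeks the normoxia pair lies at -0.83 and -0.93 and the intermittent hypoxia pair at 0.46 and 1.01, while the neighbours stay between -0.05 and 0.44.

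The remaining tested genes of this group passed in no comparison. Top2a, the topoisomerase that untangles replicated chromosomes, was negative on 15 of 18 arrays and had a mean of -0.39 in constant hypoxia (SE 0.15, limma adjusted p 0.0744). Its 2 probes did not tell the same story. On constant hypoxia 4 weeks A one read -0.15 and the other -2.89, and the running medians at their places were 0.02 and -2.88. Cenps, a kinetochore protein that also acts in DNA repair, read 0.48 and 0.40 in normoxia and -0.33 on the one intermittent hypoxia array with a value at 2 weeks (difference -0.77, SE 0.34, adjusted p 0.375). Cenpq, Cenpl and Cenpb, measured on all 18 arrays, ranged from -0.23 to 0.56, from -0.55 to 0.40 and from -1.26 to 0.64. Top2b, the form of the topoisomerase found in non-dividing cells too, stayed between -0.43 and 0.46.

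Of the cyclins, 4 of 7 were tested and Ccnd3, the D3 cyclin of G1, passed in constant hypoxia. It read -0.24 and -0.47 at 1 week, -0.60 and -0.57 at 2 weeks and -1.99 and -0.48 at 4 weeks, negative on all 6 arrays (mean -0.72, SE 0.18, limma adjusted p 0.0195). Without 4 weeks A the mean was -0.47 and the call was lost (adjusted p 0.0818). The mean hides a split between its 2 probes. One was positive on 5 of these 6 arrays (-0.02 to 0.37) and the other negative on all of them (-4.29 to -0.46), and their neighbours had running medians of 0.01 to 0.49 and -3.37 to -0.23. With the running median removed Ccnd3 read -0.30 (adjusted p 0.173). On intermittent hypoxia 2 weeks B only the negative probe had a value, so the -1.78 printed for the gene there is that probe alone. Ccna2, the cyclin of S phase and mitosis, had 3 probes, which read -0.07, -2.11 and -2.16 on constant hypoxia 4 weeks A beside running medians of 0.06, -2.20 and -2.67. Its mean in constant hypoxia was -0.39 (SE 0.15, adjusted p 0.0828), and its 4-week difference from normoxia was -0.82 (SE 0.38, adjusted p 0.715). Ccnd2 stayed near 0 in constant hypoxia (mean 0.11, SE 0.12) and the pseudogene Ccnb2-ps read -0.23 (SE 0.10), neither past the test. The G1 cyclin Ccne1, not tested for lack of values, was positive on 13 of its 14 arrays, where the running median at its probe was -0.02 to 0.42.

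**Figure D4:**
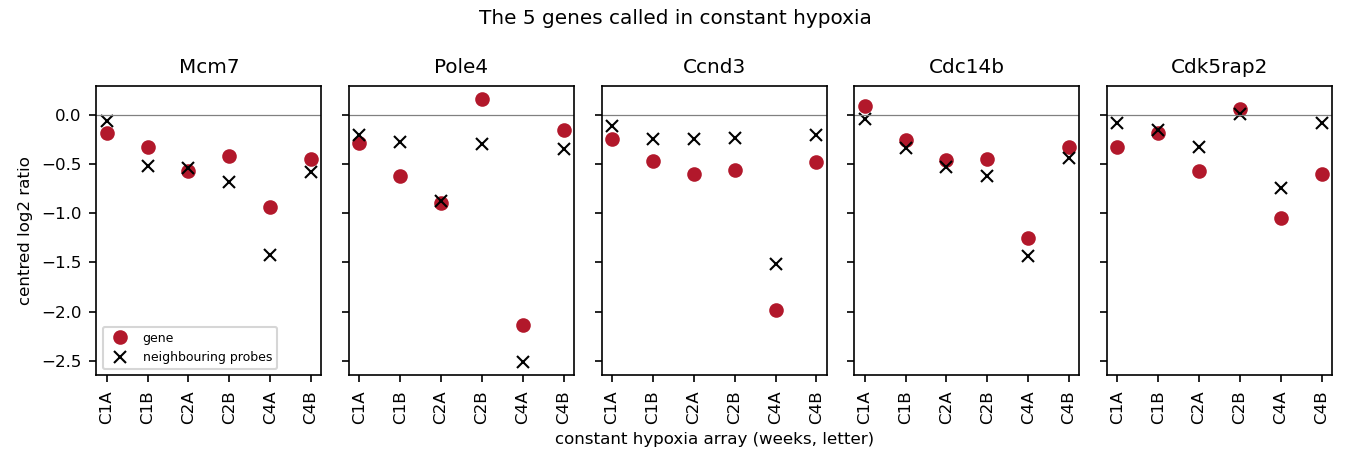
Centred log2 ratio on the 6 constant hypoxia arrays (weeks and letter) of the 5 genes called there (red dots) and the running median of the probes next to theirs (black crosses). The lowest dot of each gene is on array C4A, where the crosses are also lowest, from -2.51 for Pole4 to -0.74 for Cdk5rap2.

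The probe pairs point to one array. On constant hypoxia 4 weeks A, 24 of 120 member probes (22 genes) lay under -1, a limit chosen after the values were seen, against 0 to 4 on each of the other 17 arrays. Of these 24 probes, 19 sat where the running median was also under -1, as it was for 21 member probes in all. No member probe on any other array had such neighbours. Among the untested genes with deep values there were the kinetochore motor Cenpe at -3.06, Cdk19 at -2.72, Cenpt at -2.41, the catalytic polymerase subunits Pole at -2.31 and Pold1 at -2.15. On 4 weeks B of the same group they read -0.07, -0.54, -0.31, -0.12 and -0.36. The 2 probes of Cdc23, a subunit of the anaphase-promoting complex, read 0.02 and -4.29 on 4 weeks A beside running medians of 0.05 and -2.97. The 5 measured of 17 erythroid markers were low there too, with a median of -1.83 on 4 weeks A. It was -0.83 to 0.09 on the other constant hypoxia arrays, -0.43 to 0.25 in normoxia and -0.54 to 0.15 in intermittent hypoxia. On constant hypoxia 2 weeks B, where it was -0.83, the median of the tested members was 0.12. The running median at the erythroid probes is not given, and the part of these markers in the result was not tested. The opposite extreme was intermittent hypoxia 2 weeks B, where 14 of 68 member probes lay over 1, against 0 to 6 on each other array. Genes high there included Ccnb1ip1 at 1.93, Cdk2ap2 at 1.80, Pold2 at 1.73, Cdc6 at 1.65 and Mcm3 at 1.54. Shares of all probes past these limits were not counted. The median absolute value was 0.32 for tested members and 0.32 for all features on constant hypoxia 4 weeks A. On intermittent hypoxia 2 weeks B it was 0.38 and 0.44. The counts are thus not read as a trait of the members.

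**Figure D5:**
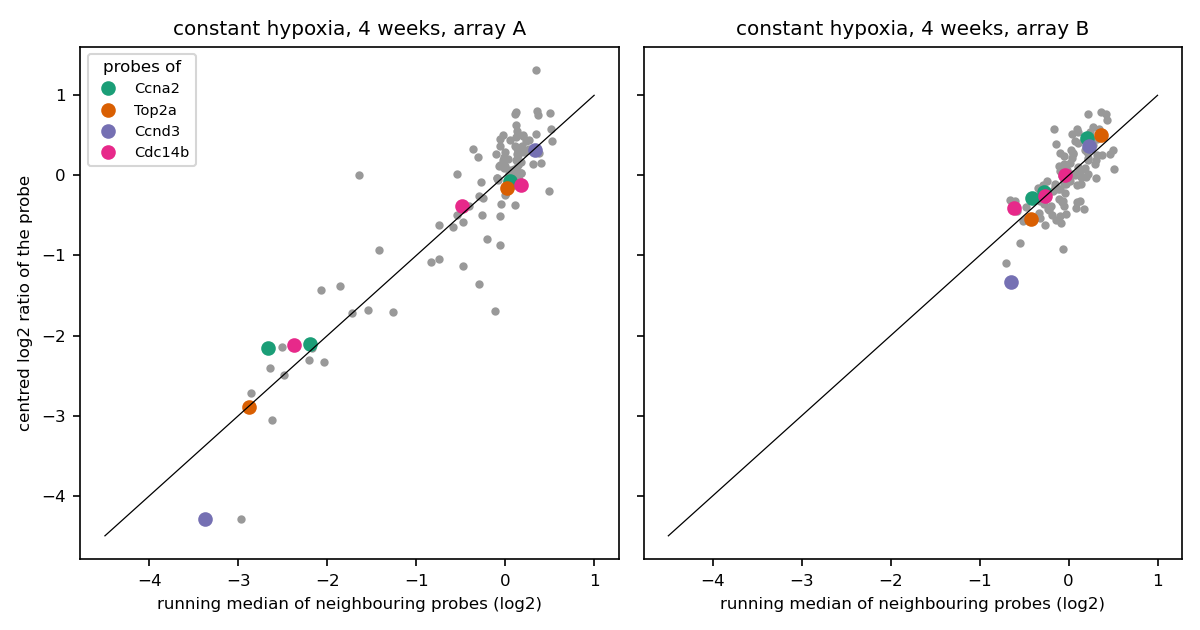
Each member probe on the 2 arrays of constant hypoxia at 4 weeks: its centred log2 ratio (y axis) against the running median of 101 neighbouring probes (x axis), with the line of equality and the probes of 4 genes in colour. On array A probes of Ccna2, Top2a, Ccnd3 and Cdc14b fall apart with their neighbours, from near 0 down to -4.29, and on array B no running median lies under -1.

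None of the 10 tested cyclin-dependent kinases, of 14, passed in any comparison. Cdk4, the partner of the D cyclins, was negative on all 6 intermittent hypoxia arrays (-0.18 and -0.16, -0.36 and -0.79, -0.06 and -0.21 by duration, mean -0.29, SE 0.09, limma adjusted p 0.0663). It was positive (0.10 and 0.38) only at 4 weeks of constant hypoxia among the groups of that regime, and 4 weeks minus 1 week was 0.48 there (SE 0.22, adjusted p 0.486). On the intermittent hypoxia arrays the running medians at the 2 probes of Cdk4 ran from -0.68 to 0.06 and from -0.67 to -0.02, lowest on 2 weeks B. Cdk6, its close relative, ranged from -1.04 to 0.37 over all arrays. Cdk1, the kinase of mitosis, had both signs in every regime, with medians of 0.12 in normoxia, 0.20 in constant hypoxia and 0.09 in intermittent hypoxia. Cdk7, which activates other cycle kinases, was positive on all 6 constant hypoxia arrays (0.04 to 0.28) and on 4 of 5 in intermittent hypoxia (-0.02 to 1.21). In normoxia it went from 0.52 and 0.31 at 1 week to -0.18 and -0.57 at 4 weeks (difference -0.79, SE 0.32, adjusted p 0.539). Cdk8, the kinase of the Mediator complex, had the lowest single values of the 10 tested kinases, -1.81 on normoxia 4 weeks B and -1.70 on constant hypoxia 4 weeks A. At its place the running median was only -0.05 and -0.11. Its mean was -0.47 in normoxia and -0.52 in constant hypoxia (both SE 0.20, adjusted p 0.199 and 0.0832). Cdk18 ranged from -0.27 to 0.72.

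Of the kinase inhibitors, 2 of 4 were tested and neither passed. Cdkn3, a phosphatase that acts on Cdk2, was positive on 16 of 17 arrays, the exception being -1.38 on intermittent hypoxia 2 weeks B. Its 2-week difference of intermittent hypoxia from normoxia, -1.03 (SE 0.39, limma adjusted p 0.288), depended on single arrays: it was -0.18 (adjusted p 0.957) without that array and -1.88 (adjusted p 0.00313) without 2 weeks A, which read 0.32. Cdkn1c, the imprinted inhibitor p57 that is strong in podocytes, ranged from -0.97 to 1.12. Cdkn1b, or p27, was not tested and was positive on 9 of the 10 arrays with a value.

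Among the CDC phosphatases and subunits of the ubiquitin ligases, 5 of 9 were tested, and Cdc14b, a phosphatase of mitotic exit, passed in constant hypoxia. It read 0.09 and -0.26 at 1 week, -0.46 and -0.45 at 2 weeks and -1.25 and -0.33 at 4 weeks (mean -0.45, SE 0.11, limma adjusted p 0.0160). Without 4 weeks A it read -0.29 (adjusted p 0.0900), and with the running median removed 0.12 (adjusted p 0.457). Like Mcm7 it was negative on 17 of all 18 arrays, with -0.35 in normoxia (SE 0.11, adjusted p 0.0863). Its 2 tested probes read -0.38 and -2.12 on 4 weeks A, where their neighbours had running medians of -0.49 and -2.38, and a probe with too few values to be tested read -0.12 beside 0.17. Cdc20, the activator of the anaphase-promoting complex, was positive on 16 of 18 arrays (mean 0.31 in normoxia, SE 0.11, adjusted p 0.126, and 0.23 in constant hypoxia, SE 0.11, adjusted p 0.149). Cdc26, a small subunit of the complex, read -0.02 and 0.91 at 2 weeks of normoxia against -0.65 and -0.52 in constant hypoxia (difference -1.03, SE 0.39, adjusted p 0.366). Cdc27, another subunit, went from -0.18 and -0.96 at 1 week to -0.14 and 0.81 at 4 weeks of normoxia (difference 0.90, SE 0.33, adjusted p 0.478). Cdc34, an E2 enzyme, stayed between -0.25 and 0.38.

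Of the genes that share only a name prefix, Cdk5rap2, a centrosome protein, passed in constant hypoxia, with -0.33 and -0.19 at 1 week, -0.58 and 0.06 at 2 weeks and -1.05 and -0.60 at 4 weeks (mean -0.45, SE 0.12, limma adjusted p 0.0226). Without 4 weeks A it read -0.37 (adjusted p 0.0913), and with the running median removed -0.22 (adjusted p 0.243). Mcm3ap, a protein of messenger RNA export, was positive on 15 of 16 arrays and had the highest mean of the 53 tested genes in constant hypoxia (0.44, SE 0.15, adjusted p 0.0548). The running median at its tested probe was positive on all constant hypoxia arrays too (0.08 to 0.56). Cdc37, the kinase cochaperone, read 0.66 and 0.34 at 4 weeks of intermittent hypoxia and 0.05 and -0.11 at 1 week (difference 0.53, SE 0.23, adjusted p 1.00). Cdk5rap3 went from -0.47 and -0.25 at 1 week to 0.41 and 0.47 at 4 weeks of normoxia (difference 0.80, SE 0.29, adjusted p 0.478). Cdc42 and Cdc5l stayed between -0.51 and 0.47 and between -0.58 and 0.67.

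The 5 calls in constant hypoxia depended on single arrays. All 5 were lost without 1 week B, 2 weeks A or 4 weeks A, and some of them without 1 week A or 2 weeks B. Without 4 weeks B, where 4 weeks A alone stands for its group, their means ran from -0.99 for Pole4 to -0.52 for Cdk5rap2. With the running median removed 0 of the 53 passed in this ratio, where only 55 of all features did, so that this count is near its background. None of the 5 passed in constant hypoxia minus normoxia, where the lowest of them was Pole4 at -0.82 (SE 0.31, limma adjusted p 0.647) and Mcm7 was at -0.18. As the comparisons with normoxia share their normoxia arrays, agreement between them was not read as a result.

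Duration left no called change. From 1 to 4 weeks the 53 genes had a median change of 0.04 in normoxia, -0.04 in constant hypoxia and -0.02 in intermittent hypoxia, beside -0.02, -0.05 and -0.01 for all features. By role, the 7 mitosis and kinetochore genes had a median change of 0.38 in normoxia (5 positive), 0.10 in constant hypoxia (4 positive) and -0.12 in intermittent hypoxia (2 positive). Those of the 12 replication genes were -0.09, -0.07 and 0.01. The 4 cyclins had 0.15, -0.41 (3 negative) and 0.03. The difference of this change between constant hypoxia and normoxia was negative for 36 of the 53 genes (median -0.11, against -0.03 for all features). With the running median removed 25 of the 53 were positive (median -0.01). The widest changes were those of Cdk8 in constant hypoxia (-1.31, SE 0.50, limma adjusted p 0.423), Pcna in intermittent hypoxia and Cdc27 in normoxia. The difference of this change between intermittent hypoxia and normoxia was lowest for Zwint (-1.10, SE 0.43, adjusted p 0.544). Between constant hypoxia and normoxia it was lowest for Ccna2 (-1.04, SE 0.53, adjusted p 1.00). Both arrays of a group gave the same sign for 48.9% to 67.9% of the members, and for 52.7% to 77.1% of all features.

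Other genes of the cycle, from a list of 165 outside the symbol rule, were measured for 74. In constant hypoxia 10 passed as negative and 1 as positive, where 18.3% of all features passed in either direction. Among the negative ones were the licensing inhibitor Gmnn (-1.01, SE 0.30, limma adjusted p 0.0338), the kinetochore protein Spc25 (-0.88, SE 0.21, adjusted p 0.0150), the spindle protein Nusap1 (-0.68, SE 0.14, adjusted p 0.0103) and cyclin I, Ccni (-1.22, SE 0.23, adjusted p 0.00751). The positive one was Tacc3 (0.30, SE 0.09, adjusted p 0.0478). With the running median removed these read 0.08, -0.29, -0.32, -0.13 and 0.13, and none of the 11 passed. In intermittent hypoxia Timeless, of the replication fork, and Prc1, of cytokinesis, passed as negative (-0.60 and -0.55), and the checkpoint gene Bub3 and the DREAM subunit Lin54 as positive (0.44 and 0.53). Timeless (-0.46, adjusted p 0.0194) and Lin54 (0.55, adjusted p 0.00881) also passed with the running median removed, while Bub3 and Prc1 did not. In that ratio 5.79% of all features passed, and 209 features did with the running median removed. In normoxia the cyclin L1 gene Ccnl1 passed at -0.37, and with the running median removed at -0.40 (adjusted p 0.0360). There 3.53% of all features passed, and 133 features did with the running median removed. In no regime did the share of the 74 that passed lie above its background. None of the 74 passed in any comparison between regimes or durations by limma, with 1 to 11 of them at an unadjusted p under 0.05. In these comparisons 2.47% to 12.4% of all features had such a p.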

How the data were processed

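Values deposited by the authors are log2 ratios, 1 for each probe of an array, whose background correction and normalization the sources used here do not give. The base was read from 400 sampled values per array. Counted was the share that gave a ratio of whole numbers up to a denominator of 600 (relative tolerance 3e-09). In base 2 it was 27.5% to 50.2% on the constant hypoxia arrays and 67.5% to 80.5% on all others. This share was at most 0.25% in base e and 0.75% in base 10. The values carry no intensity, so depth is unknown and 2 arrays per group limit the precision. The arrays of a group carried different animals per the labels, and p-values measure the spread between these arrays. Of the probes, 9604 had 1 symbol, 213 several and 6311 none.

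Arrays were grouped by title. Of the 16128 probes, 6518 passed the filter; those of one symbol were averaged, which left 5751 features (4109 genes), and the median over these was subtracted from each array. The fit of group means used limma 3.58.1 with R 4.3.3 (prior degrees of freedom 5.55), a script tested on simulated data, and p-values adjusted by Benjamini-Hochberg over all features. Promoter strings were counted in Python. The alternatives changed centring, filter, probe choice, scale, moderation, running median, array letter and arrays left out. The members and the gene lists (other cycle genes, and tubule, podocyte, progenitor, erythroid, immune and endothelial markers) were chosen with earlier results of these data known. Named were all called members, the 3 of smallest p per direction and comparison, up to 4 per role measured on most arrays, and those at the limit of 6 arrays; others are named where a count or a single value singled them out afterwards. Immune (3 of 19 measured) and endothelial (4 of 10) markers had medians from -1.04 to 0.59 and from -0.18 to 0.65 over arrays. Correlations of A minus B between 36 pairs of groups had both signs and ran from -0.38 to 0.46. They showed no common pairing by letter and cannot settle whether some arrays share a batch.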

Additional observations from a re-analysis of the deposited data

Results flagged for a closer look

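One result was singled out: the difference of Zwint between intermittent hypoxia and normoxia had opposite signs at 2 weeks (1.62) and at 4 weeks (-0.70). Every intermittent hypoxia array lay above every normoxia array at 2 weeks, and the 1 intermittent hypoxia array with a value at 4 weeks lay below both of normoxia. As Zwint was chosen by its call at 2 weeks, the separation there adds no support. The difference between these durations was not tested.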

How the results depend on the processing

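Counts of members called out of 53 depended on several settings. The share of all features called is not given for most of them, so the counts are not a result about the members. With values as deposited, 53 were called in the constant hypoxia ratio and 52 in constant hypoxia minus normoxia. That difference gave 45 at 1 week and 48 at 4 weeks. Intermittent hypoxia minus normoxia at 2 weeks gave 0. Values as deposited keep the array medians, -1.13 to -0.18 on the constant hypoxia arrays, a shift that all features of an array share. The constant hypoxia ratio gave 12 of 91 with a value on 6 or more arrays, 0 with the running median removed, 3 with unmoderated statistics and 3 without both arrays of disagreeing labels. The normoxia ratio gave 1 with arrays brought to one spread and 4 without the disagreeing labels. The intermittent hypoxia ratio gave 1 centred on all probes, 4 with 6 or more arrays, 2 with one spread, 1 unmoderated and 10 without the disagreeing labels. For intermittent hypoxia minus normoxia at 2 weeks the count was 0 centred on all probes, with all 18 arrays required, with one spread, unmoderated and with the replicate block (array letter), and 9 without the disagreeing labels. The replicate block moved no other count of calls by over 1.5 times. Called genes that changed sign with the running median removed were Mcm7 (0.15), Cdc14b (0.12) and Pole4 (0.0923). Leaving out 1 array at a time gave 0 to 12 calls in the constant hypoxia ratio, 0 to 1 in normoxia, 0 to 6 in intermittent hypoxia and 0 to 7 in intermittent hypoxia minus normoxia at 2 weeks. It gave 0 to 1 in constant hypoxia minus normoxia, 0 to 3 at 4 weeks, 0 to 6 in 4 weeks minus 1 week of constant hypoxia and 0 to 2 in its difference from normoxia. The highest of these constant hypoxia counts all came without constant hypoxia 4 weeks B, where 4 weeks A alone stands for the group and is assumed to vary like the others. Both of the highest intermittent hypoxia counts came without intermittent hypoxia 2 weeks A. There 2 weeks B alone stands for the group, as it does without both arrays of disagreeing labels. The causes were not tested. Limits: 2 arrays per group, no dye swap, no intensities, and constant hypoxia values on their own footing.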
